A study of Homo sapiens with 8 samples.

Results

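Acetalax (oxyphenisatin acetate) is a diphenol laxative studied as an anticancer agent, and the question addressed here is which transcripts differed in parental BT549 cells 6 hours after 1 μmol/L of the drug. BT549 is an established triple-negative breast cancer line, meaning that it lacks estrogen receptor, progesterone receptor and amplified HER2. The comparison is between 2 libraries of the 8 in the series, the Acetalax-treated parental BT549 cells and the untreated parental control. The other 6 libraries are parental MDA-MB468 cells, a second triple-negative line, with and without the same treatment, and chronic exposure (CE) cells of both lines, with and without it. CE cells had been passaged in rising Acetalax up to 40 μmol/L, are described as resistant clones and were used after 2 weeks without it.

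Each of these conditions was 1 library, so no value below has an error across replicates and no p-value is given. Polyadenylated RNA was sequenced, and reads were counted per gene. The 2 BT549 parental libraries held 42261122 counts (control) and 43495356 counts (Acetalax), within the range of 42261122 to 54241728 over all 8 libraries. Levels are given in CPM, the counts on a gene per 1000000 counts of its library. A ratio is the log2 of Acetalax CPM over control CPM after 0.5 counts were added to each count. Its interval is the 95% exact binomial (Clopper-Pearson) interval, which covers counting error only. Differences between these 2 libraries therefore compare libraries, and the spread between cultures is unknown. In bulk RNA, fewer cells that express a gene and less RNA of it per cell cannot be told apart.

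Acetalax acts on TRPM4, a channel of the plasma membrane that opens when calcium rises inside the cell and lets sodium in. Sodium entry draws water, and the death that follows in sensitive cells is oncosis, a form marked by swelling and membrane rupture rather than by caspase cleavage. Stressed cells are known to switch on immediate early genes, which encode transcription factors and secreted factors and need no new protein for their induction. They can also switch on the unfolded protein response of the endoplasmic reticulum and the integrated stress response, which runs through the transcription factor ATF4.

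The label was checked against marker genes. The 8 mesenchymal genes that mark BT549 cells (VIM, FN1, CDH2, ZEB1, SPARC, COL1A1, COL1A2 and AXL) summed to 5948 CPM in the control and 6081 CPM with Acetalax, and 8 of 8 were at 5 CPM or more in the control. The 8 epithelial markers summed to 11.4 CPM and 8.23 CPM, against 6298 CPM in MDA-MB468 control cells, and only KRT18 reached 5 CPM. ESR1 had 1 count in the control and 0 with Acetalax, PGR had 0 in both, and ERBB2, which encodes HER2, was at 59.0 and 41.2 CPM. Leukocyte markers summed to 1.61 and 3.38 CPM, most of it CD14, which had 31 and 111 counts. Of the endothelial markers, CDH5 and VWF had 0 and 1 count in the treated library, 0 in the control, and PECAM1 did not match a symbol. The markers fit the label, with a strong mesenchymal and almost no epithelial, leukocyte or endothelial signal.

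The mean over the pair reached 5 CPM in 10142 genes, which is 211 counts in the control and 217 counts in the treated library. Just inside that limit were TSNARE1 (209 and 220 counts) and KCTD18 (288 and 139 counts), and just outside it TAGLN2P1 (196 and 233 counts) and TMEM74 (230 and 198 counts). At least 2-fold higher with Acetalax were 121 genes (1.19% of those tested), and at least 2-fold lower were 126 genes (1.24%). Past 1.5-fold, the numbers were 382 higher (3.77%) and 936 lower (9.23%). The median ratio of all genes was -0.10, with 6414 genes below 0 (63.2%) and 3728 above. The middle 95% of genes, from the 2.5th to the 97.5th percentile, lay between -0.88 and 0.72. Because the centre lies below 0, the balance of higher and lower genes depended on the scaling. Higher genes made up 49.0% of the genes past 2-fold and 29.0% of those past 1.5-fold under total-count scaling, 59.8% and 40.6% under TMM (edgeR's trimmed-mean scaling), and 65.2% and 46.9% once the median was set to 0.

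The tails differed in size and in mass. At least 4-fold higher were 9 genes and at least 4-fold lower was 1 gene, TXNIP. The interval lay wholly past 2-fold for 87 of the 121 higher genes and for 59 of the 126 lower genes. The higher genes together gained 11248 CPM, while the lower genes together fell by 1860.5 CPM. Median control levels were 20.8 CPM for the higher genes, 15.8 CPM for the lower genes and 42.3 CPM for all genes tested. Of the higher genes, 17 were below 5 CPM in the control and entered through the treated library, and 42 of the lower genes were below 5 CPM in the treated library, so those genes had to differ to be tested.

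**Figure D1:**
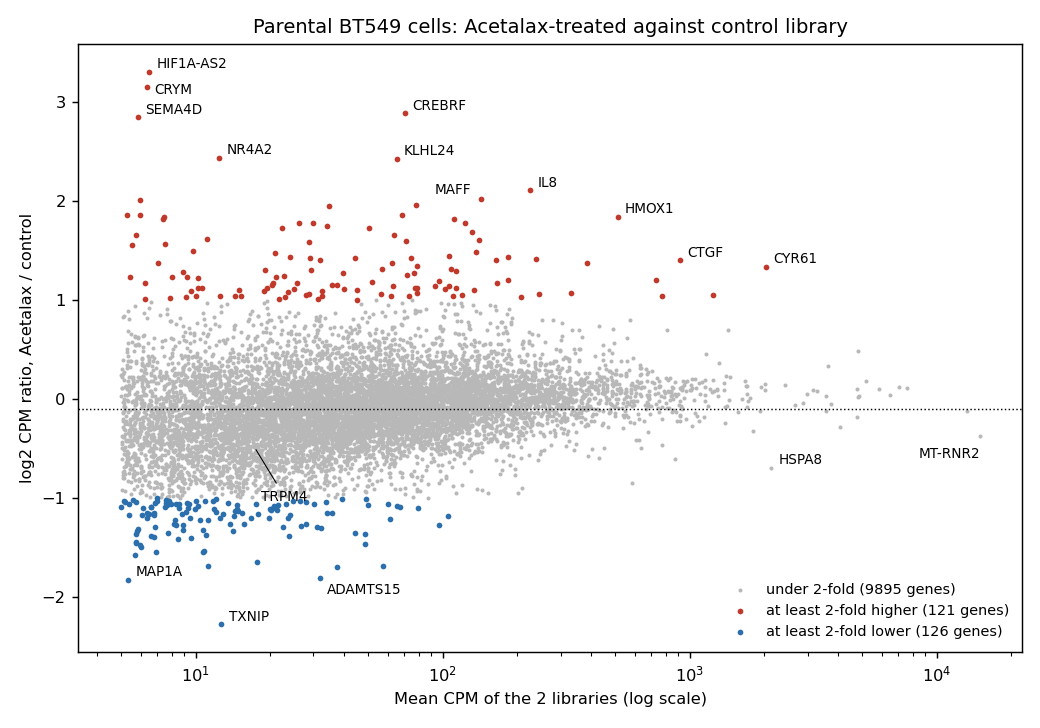
Each point is 1 of the 10142 genes tested in the parental BT549 pair, with the mean CPM on a log axis and the log2 CPM ratio (Acetalax over control) on the vertical axis; red points are at least 2-fold higher (121), blue points at least 2-fold lower (126), and the dotted line is the median of -0.10. The higher genes reach the levels of CYR61 and CTGF, 2903 and 1319 CPM with Acetalax, while the lower genes lie at low and middle levels.

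TRPM4 itself (ENSG00000130529, hg19 chromosome 19, 49660998 to 49715093, plus strand) had 850 counts in the control and 626 with Acetalax, or 20.1 and 14.4 CPM. The ratio was -0.48 (interval -0.63 to -0.33), lower by more than counting error but inside the middle 95% of genes. In the other pairs the TRPM4 ratio was -0.04 in parental MDA-MB468, -0.62 in BT549 CE and -0.03 in MDA-MB468 CE cells. The transcript of the drug's target was thus lower in both treated BT549 libraries and within counting error of its control in both treated MDA-MB468 libraries. These are RNA values. By Western blot, the paper reports almost no TRPM4 protein in the CE cells of either line, while it describes the transcript as unchanged in them. It also reports that TRPM4 protein fell within hours of Acetalax in parental MDA-MB468 cells, at a higher dose than here. A proteasome inhibitor blocked that fall.

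The highest ratio belonged to HIF1A-AS2, a long noncoding RNA read from the strand opposite HIF1A (chromosome 14, 62182276 to 62217815), with 50 counts in the control and 512 with Acetalax, a ratio of 3.30 (2.89 to 3.76). HIF1A, which encodes the oxygen-sensitive transcription factor, went from 122 to 135 CPM, a ratio of 0.14. Exons of these genes overlap on opposite strands, and since the strand setting of the counting is not given in the sources used here, the split of reads between them is uncertain. The next was CRYM, which encodes a thyroid hormone-binding crystallin (chromosome 16, 21250195 to 21314404), with 54 and 497 counts and a ratio of 3.15 (2.75 to 3.59). Both started near 1 CPM in the control, 1.18 for HIF1A-AS2 and 1.28 for CRYM.

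CREBRF (chromosome 5, 172483355 to 172566291), a regulator of the CREB3 family of stress factors, had 708 counts in the control and 5374 with Acetalax. Its level went from 16.8 to 124 CPM and its ratio was 2.88 (2.77 to 3.00). It thus joined a large fold with a high level, as did IL8, MAFF and HMOX1 (below) among the 15 highest. KLHL24, an adaptor of a ubiquitin ligase that acts on keratins, had 864 and 4771 counts and a ratio of 2.42 (2.32 to 2.53). SEMA4D, a membrane-bound semaphorin, had 60 and 445 counts and a ratio of 2.84 (2.46 to 3.26). NR4A2, an orphan nuclear receptor of the immediate early class, had 164 and 915 counts and a ratio of 2.43 (2.20 to 2.69).

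Secreted and nuclear regulators filled much of the rest. IL8 (also CXCL8), the neutrophil chemokine, went from 85.4 to 367 CPM, a ratio of 2.10 (2.05 to 2.16). MAFF, a small MAF protein that pairs with NRF2 or BACH1 on DNA, went from 57.0 to 230.0 CPM, a ratio of 2.01 (1.95 to 2.08). ATF3, a stress-induced member of the ATF and AP-1 families, went from 31.9 to 124 CPM, a ratio of 1.96 (1.87 to 2.04). HMOX1, which breaks down heme, went from 223 to 798 CPM, a ratio of 1.84 (1.80 to 1.87). FZD8, a receptor for WNT ligands, went from 29.6 to 107 CPM, a ratio of 1.86 (1.77 to 1.95).

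The remaining 4 were weaker or of lower level. IER3, an early response gene that limits apoptosis, had 601 and 2387 counts and a ratio of 1.95. ASNS, the asparagine synthetase that ATF4 controls, had 96 and 360 counts and a ratio of 1.86. FAM46C had 109 and 408 counts with a ratio of 1.86, and FAM229A had 100 and 415 counts with a ratio of 2.01. The annotation places exons of other genes opposite MAFF (PLA2G6), FAM229A (TSSK3), SEMA4D (AL590233.1) and IER3 (HCG20 and IER3-AS1), which leaves the same uncertainty.

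**Figure D2:**
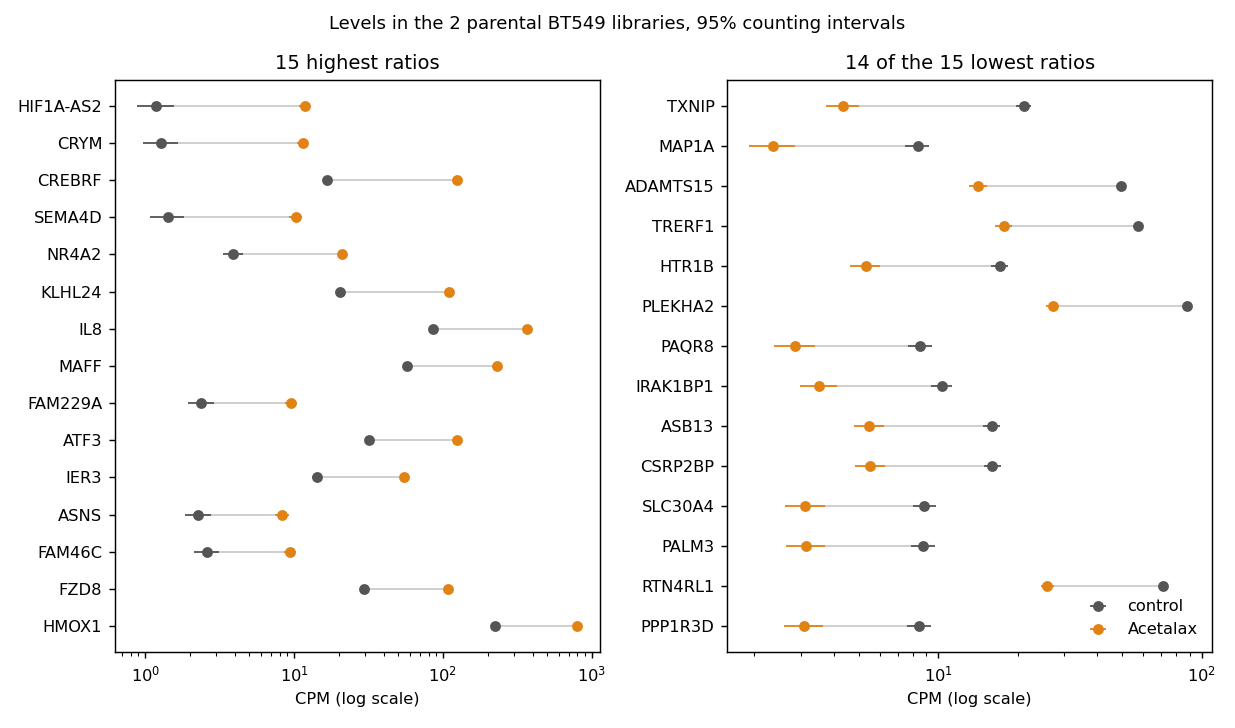
CPM (log axis) of the 15 genes with the highest ratio and 14 of the 15 with the lowest in the control (grey) and Acetalax (orange) parental BT549 libraries, with bars for the 95% counting interval of each level. No interval of a control level overlaps that of its treated level, which follows from choosing the most extreme ratios. HMOX1 and IL8 stand at the highest levels with Acetalax, 798 and 367 CPM.

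At the other end stood TXNIP, the thioredoxin-interacting protein that curbs glucose uptake and whose transcript follows glucose and energy supply. It had 892 counts in the control and 189 with Acetalax, from 21.1 to 4.35 CPM, a ratio of -2.28 (-2.51 to -2.05). The TXNIP entry counted lies on HG1287_PATCH, a patch sequence and not a chromosome, so the assignment of its reads is uncertain. MAP1A, a microtubule-associated protein, had 352 and 102 counts and a ratio of -1.82. ADAMTS15, a secreted metalloprotease, had 2088 and 615 counts, from 49.4 to 14.1 CPM, and a ratio of -1.8 (-1.94 to -1.67).

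Other genes among the 15 lowest came from many functions. TRERF1, a zinc finger regulator of steroid enzyme genes, went from 57.3 to 17.7 CPM (ratio -1.70), and PLEKHA2, which binds phosphoinositides, from 87.6 to 27.2 CPM (ratio -1.69). HTR1B, a serotonin receptor, went from 17.1 to 5.29 CPM (ratio -1.69). RTN4RL1, a receptor of the Nogo family, went from 71.4 to 25.9 CPM, a ratio of -1.46. Further members were PAQR8 (-1.58), IRAK1BP1 (-1.55), ASB13 (-1.55), CSRP2BP (-1.54), SLC30A4 (-1.5), PALM3 (-1.47) and PPP1R3D (-1.45). Exons of other genes lie opposite IRAK1BP1 (PHIP), PPP1R3D (FAM217B), SLC30A4 and PLEKHA2.

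By absolute change in CPM the picture was led by matricellular and mitochondrial transcripts. CYR61 (also CCN1), a secreted matricellular factor, went from 1152 to 2903 CPM, a gain of 1750.3 CPM. SLC38A2, an amino acid transporter that takes up its substrates with sodium, went from 809 to 1674 CPM. CTGF (also CCN2) went from 500.5 to 1319 CPM, THBS1 (thrombospondin 1) from 1087 to 1764 CPM and the kinase ABL2 from 442 to 1015 CPM. The rest of the 10 largest gains were HMOX1 and the mitochondrial transcripts MT-ND2 (a gain of 1587 CPM), MT-ND1 (840.4), MT-CO2 (639) and MT-ND4 (569).

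The largest loss was that of MT-RNR2, the large mitochondrial ribosomal RNA, which dropped by 3898 CPM, from 16847 to 12949. MT-CO1 dropped by 1153 CPM. The chaperone genes HSPA8 and HSP90AA1 went from 2639 to 1629 CPM and from 4454 to 3661 CPM. Large cytoskeletal genes made up most of the rest, with FLNA, DYNC1H1, PLEC, AHNAK and MYH9 at ratios of -0.19, -0.32, -0.60, -0.85 and -0.12, and FAM129B at -0.47. The ratios of MYH9 and MT-CO1 (-0.13) lay near the median of all genes, -0.10. In parental MDA-MB468 cells the ratios of FLNA, PLEC, AHNAK, MYH9 and FAM129B were 0.52, 1.61, 0.81, 0.62 and 0.57, so these went the other way there. The mitochondrial share of all counts was 7.32% in the control and 7.29% with Acetalax, while that of the 2 mitochondrial ribosomal RNAs was 1.85% and 1.44%.

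Gene lists are described next by their measured members, their median ratio and their counts past 1.5-fold, to be read against the median of -0.10 and the shares of 3.77% higher and 9.23% lower over all genes. These references varied with level. In 5 equal bins by mean CPM, the lowest had a median of -0.26 with 20.6% lower, and the highest 0.02 with 1.13% lower. The lists were not matched for level, and its part in their values was not tested. The lists chosen with the design were drawn up with earlier results of these data known, and others were added later. No test was made of any list. Some list members were below 5 CPM in 1 of the 2 libraries and reached the limit through the other. Among them were ASNS and NR4A2 (low in the control) and TXNIP, KCNN4 and LRRC8C (low in the treated library).

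Transcription factors of the immediate early class were high as groups. Of 9 AP-1 genes, whose dimers bind promoters and enhancers in growth and stress, 3 were past 1.5-fold higher and 1 lower (JDP2), with a median of 0.47. ATF3 led, followed by FOSB from 13 to 35.1 CPM (ratio 1.44) and JUND from 99.5 to 268 CPM (ratio 1.43), while JUNB was at 0.57, FOS at 0.47 and JUN at 0.24. Of 13 genes of the EGR and NR4A list, 6 were higher and 0 lower, with a median of 0.57. They included NR4A1 from 5.18 to 12.6 CPM (ratio 1.28) and EGR1 from 71.3 to 154 CPM (ratio 1.11). NR4A2, also counted, was at 3.88 CPM in the control and reached the 5 CPM limit only through the treated library.

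Of 8 small MAF and CNC factors, which bind antioxidant elements, 4 were higher and 0 lower, with a median of 0.45. MAFG went from 55.9 to 191 CPM (ratio 1.77) and MAFK from 55.3 to 101 CPM (ratio 0.88), so each of the small MAF genes MAFF, MAFG and MAFK was past 1.5-fold. BACH1, their repressor partner, was at 0.62, while NFE2L2, which encodes NRF2, was at 0.27. Of 12 KLF genes, 4 were higher and 1 lower, with a median of 0.37. KLF4 went from 62.4 to 155 CPM, KLF11 from 16.9 to 41.6 CPM and KLF10 from 77.8 to 161 CPM, with ratios of 1.31, 1.29 and 1.05, while KLF2 was at -0.99.

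The upstream 250 bases of 4 higher genes are shown because they hold a motif that ATF and AP-1 dimers or serum response factor can bind. They are the first 4 by ratio, of those that could be shown, to hold a cyclic AMP response element (CRE, TGACGTCA, the same on both strands) or a CArG box, the motif of serum response factor. The sequences are from RefSeq on GRCh38.p14, read 5′ to 3′ on the strand of the gene up to the base before its first listed start, with the motif in capitals.
MAFF (chr22:38201744-38201993, plus strand): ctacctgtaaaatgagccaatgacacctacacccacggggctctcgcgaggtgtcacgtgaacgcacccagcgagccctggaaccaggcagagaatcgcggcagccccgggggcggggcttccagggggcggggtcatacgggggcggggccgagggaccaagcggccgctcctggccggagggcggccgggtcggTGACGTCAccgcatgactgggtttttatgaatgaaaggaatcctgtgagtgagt
JUND (chr19:18281623-18281872, minus strand): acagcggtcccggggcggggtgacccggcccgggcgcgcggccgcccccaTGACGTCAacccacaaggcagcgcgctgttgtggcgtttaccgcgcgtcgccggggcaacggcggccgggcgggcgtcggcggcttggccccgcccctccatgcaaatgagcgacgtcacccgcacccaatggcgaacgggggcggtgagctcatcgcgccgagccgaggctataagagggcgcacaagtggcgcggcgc
RND3 (chr2:150487696-150487945, minus strand): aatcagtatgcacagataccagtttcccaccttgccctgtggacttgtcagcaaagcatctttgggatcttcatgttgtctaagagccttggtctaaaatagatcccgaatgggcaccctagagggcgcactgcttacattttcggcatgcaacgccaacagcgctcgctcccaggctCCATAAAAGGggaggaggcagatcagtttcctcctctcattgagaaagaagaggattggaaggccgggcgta
SKIL (chr3:170357465-170357714, plus strand): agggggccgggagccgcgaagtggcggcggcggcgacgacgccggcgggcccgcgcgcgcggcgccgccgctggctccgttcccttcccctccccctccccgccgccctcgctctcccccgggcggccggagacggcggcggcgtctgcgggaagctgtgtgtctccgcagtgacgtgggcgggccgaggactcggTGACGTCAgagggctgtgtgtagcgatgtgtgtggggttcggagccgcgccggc
The CRE begins 54 bases upstream of the start in MAFF and in SKIL, whose protein restrains SMAD signaling (ratio 1.27), and 200 bases upstream in JUND. The CArG box begins 72 bases upstream in RND3, a small GTP-binding protein that loosens actin bundles (ratio 1.37). Over windows from 250 bases before to 50 after the start, the CRE was found in 540 of 27305 windows (1.98%) and in 297 of 8348 windows of tested genes (3.56%), and the CArG box in 351 (1.29%) and 88 (1.05%). Windows were matched for 93 of the 121 higher genes (76.9%) and 100 of the 126 lower genes (79.4%), which is too few to compare motif shares between the groups, so that comparison is void. A match is a description of letters and not of binding.

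Circadian clock genes, a feedback loop of activators and their PER, CRY and NR1D repressors, were among the highest lists. Of 16 measured, 7 were past 1.5-fold higher and 0 lower, with a median of 0.50. PER1 went from 23.4 to 77.4 CPM, a ratio of 1.73 (1.62 to 1.83). NR1D1, which shares opposite-strand exons with THRA, went from 14.4 to 43.2 CPM, a ratio of 1.58. CRY1 went from 24.1 to 64.5 CPM, a ratio of 1.42. PER2 was at 0.86, PER3 at 0.69 and C1orf51 (CIART) at 1.02, and the activator CLOCK was at -0.43.

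Of 10 chemokines and cytokines, 6 were higher and 0 lower, with a median of 0.70, the highest of the lists in the plot of members by list. Besides IL8, IL6 went from 11.1 to 27.2 CPM (ratio 1.30), CLCF1, a cytokine of the IL6 family, from 20.8 to 41.8 CPM (ratio 1.00) and CXCL2 from 15.7 to 27.9 CPM (ratio 0.83). LIF was at 0.76 and CXCL1 at 0.65, while CSF1 was at -0.49 and CCL2 at -0.11. Of 20 NF-kB genes, the family of inflammatory transcription factors with its inhibitors, 5 were higher and 1 lower, with a median of 0.23. RELB went from 49.9 to 99.8 CPM (ratio 1.00), TNFAIP3, which ends NF-kB signaling, from 26.0 to 47.3 CPM (ratio 0.87), and NFKB2 from 130.5 to 206 CPM (ratio 0.66), while BCL3 was at -0.87.

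Growth factor signaling was described by 3 lists. Of 6 EGFR ligands and their sheddases, only HBEGF was past 1.5-fold, from 35.3 to 107 CPM (ratio 1.60). Of 17 MAPK feedback genes, 3 were higher (DUSP8, DUSP16 and ERRFI1, with ratios of 1.24, 0.90 and 0.69) and 1 lower (SPRED2, -0.71), and the median of -0.06 changed sign with the scaling. Of 35 genes of TGF-beta and BMP signaling, 9 were higher and 2 lower, with a median of 0.09. INHBA, the activin subunit, went from 90.1 to 238 CPM (ratio 1.40), SKIL was at 1.27 and PMEPA1, a SMAD-induced inhibitor, at 1.12, whereas BMP4 and the receptor TGFBR2 were at -0.95 and -0.94.

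Of 23 YAP-TAZ genes, the targets and parts of the Hippo pathway, 4 were higher and 1 lower (AMOTL1, -0.63). The high members were CTGF, CYR61, the Hippo kinase LATS2 from 59.0 to 134 CPM (ratio 1.19) and TGFB2 (ratio 0.86), while the median of -0.08 changed sign with the scaling. Of 24 actin and SRF targets, 0 were past 1.5-fold in either direction, with a range from -0.33 (CNN2) to 0.42 (FHL2) and a median of -0.05 that also changed sign with the scaling.

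**Figure D3:**
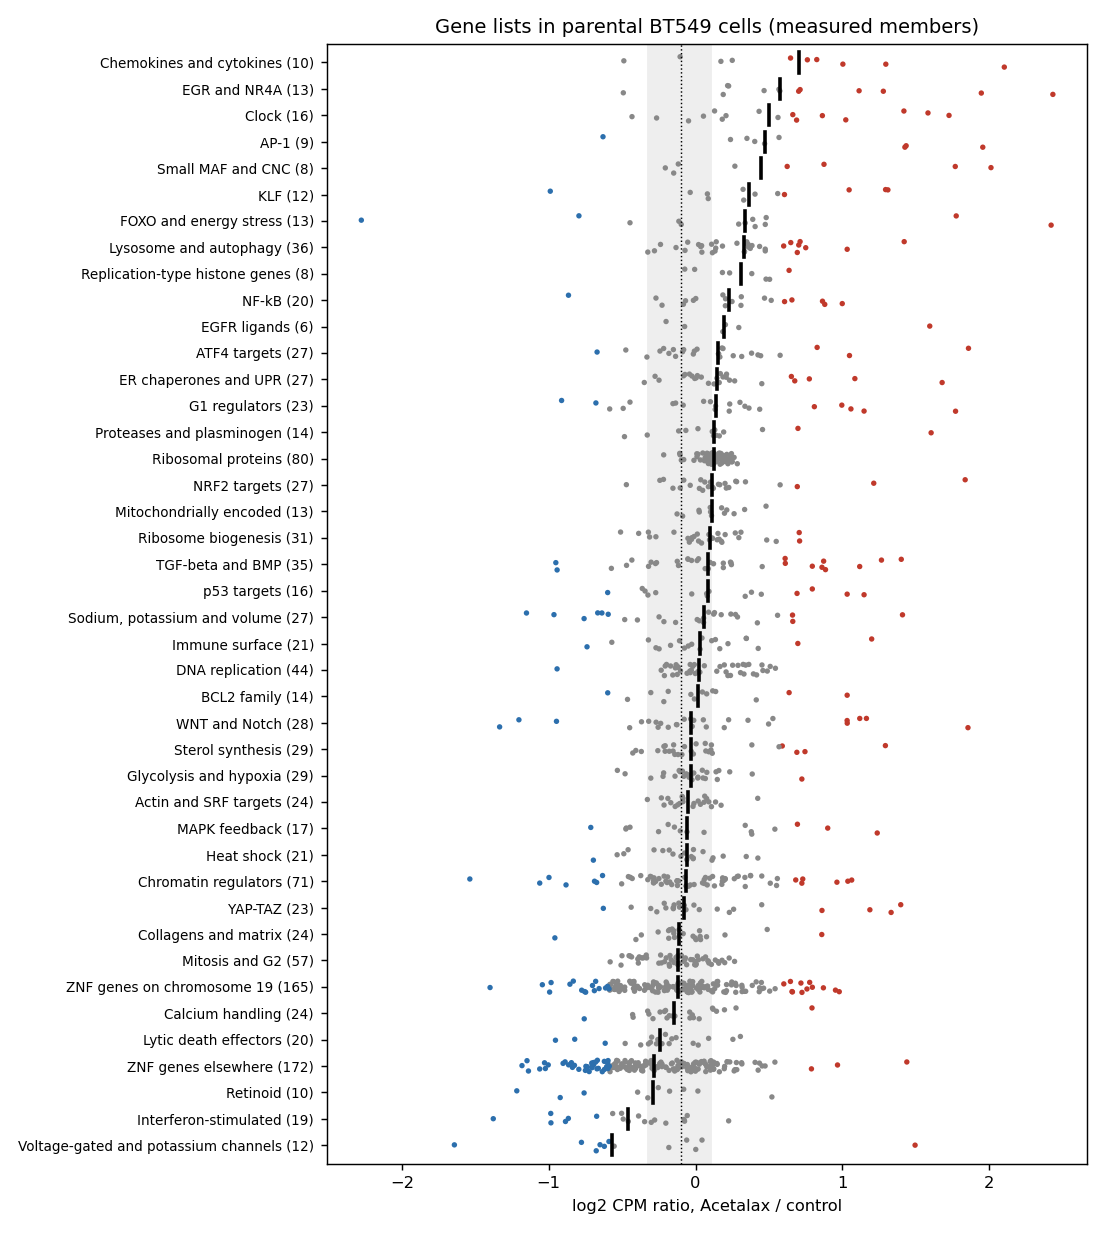
Each point is the log2 CPM ratio of 1 measured gene in the parental BT549 pair, by list, with the number measured in parentheses; red is at least 1.5-fold higher, blue at least 1.5-fold lower, black bars are list medians, the dotted line is the median of all genes (-0.10) and the grey band its middle 50%. Chemokines and cytokines, EGR and NR4A, clock and AP-1 genes have medians from 0.47 to 0.70, and interferon-stimulated genes and potassium channels have the lowest, -0.46 and -0.57.

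In the endoplasmic reticulum list, 5 of 27 genes were higher and 0 lower, with a median of 0.15. HERPUD1, which serves the degradation of misfolded proteins, went from 62.3 to 199.6 CPM, a ratio of 1.68 (1.62 to 1.74). DNAJB9 was at 1.09, PPP1R15A, which restores translation after stress, at 0.78, and the stress sensor EIF2AK3 (PERK) at 0.68. The chief chaperone HSPA5 (BiP) was at 0.45 and ERN1, the IRE1 sensor, at -0.25, so the members differed in direction. Of 27 ATF4 targets, 3 were higher (ASNS, SLC38A2 and CHAC1, with ratios of 1.86, 1.05 and 0.83) and 1 lower (TRIB3, -0.67), with a median of 0.16. ASNS, at 2.27 CPM in the control, reached the 5 CPM limit only through the treated library.

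Of 21 cytosolic heat shock genes, 0 were higher and 1 lower, HSPA8 (HSC70) at -0.70, with DNAJB1 at -0.49 and BAG3 at -0.46; the median of -0.06 changed sign with the scaling. Of 27 NRF2 targets, 3 were higher (HMOX1, OSGIN1 and SQSTM1, with ratios of 1.84, 1.21 and 0.69) and 0 lower, with a median of 0.12. SLC7A11, the cystine transporter that ATF4 and NRF2 share, was just short of 1.5-fold at 0.58, and GSR was at -0.47.

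Of 13 genes of FOXO and energy stress, 2 were higher and 2 lower. KLHL24 and IRS2, an adaptor of the insulin receptor that went from 11.8 to 40.6 CPM (ratio 1.78), were high, and TXNIP and its relative ARRDC3, from 131 to 75.5 CPM (ratio -0.79), were low. Of 36 genes of lysosome and autophagy, a list added after values had been seen, 8 were higher and 0 lower, with a median of 0.33. FLCN and FNIP1, partners that control lysosomal nutrient signaling, were at 1.42 (from 40.7 to 109 CPM) and 1.03, and RRAGC, a GTPase of the same pathway, at 0.75.

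Swelling cells are known to answer with channels and pumps that restore their volume. Of 27 genes of sodium, potassium and volume control, 3 were higher and 6 lower, with a median of 0.06. LRRC8 proteins form the chloride channel that opens in swollen cells. LRRC8D went from 49.0 to 22 CPM, a ratio of -1.15 (-1.26 to -1.04), and LRRC8B and LRRC8C were at -0.76 and -0.67, whereas the obligatory subunit LRRC8A went from 126 to 186 CPM, a ratio of 0.56. KCNN4, a calcium-activated potassium channel, went from 9.70 to 4.97 CPM (ratio -0.96). SGK1, a kinase that raises sodium transport, went from 131 to 347 CPM (ratio 1.41), and ATP1B1, a subunit of the sodium pump, from 49.6 to 78.4 CPM (ratio 0.66).

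Of 12 voltage-gated and potassium channel genes, a list added after values had been seen, 6 were lower and 1 higher, with a median of -0.57. The lower genes included KCND1 (-0.78), KCNQ5 (-0.68) and the leak channel KCNK3 (-0.65), and the exception was KCNJ14, from 5.11 to 14.4 CPM (ratio 1.5). Of 24 genes of calcium handling, 1 was higher, RCAN1, the calcineurin inhibitor (ratio 0.79), and 1 lower, NFATC3 (-0.76), with a median of -0.15.

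Genes of cell death were mixed. Of 14 BCL2 family genes, 2 were higher, BBC3 (PUMA) from 9.44 to 19.3 CPM (ratio 1.03) and PMAIP1 (NOXA) at 0.64, and 1 lower, BCL2 itself at -0.60, with a median of 0.02. Of 20 effectors of lytic death and their regulators, 0 were higher and 3 lower, with a median of -0.24. The lower genes included TNFRSF1A, the main TNF receptor, from 200.4 to 103 CPM (ratio -0.95), and CASP8 (-0.62). Of 16 p53 targets, 4 were higher and 1 lower, with CDKN1A (p21) from 23.2 to 51.5 CPM (ratio 1.15), GDF15 from 419 to 727 CPM (ratio 0.80) and TP53INP1 at 0.69, and a median of 0.09.

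Cell cycle genes were described by 3 lists. Of 23 G1 regulators, 5 were higher and 2 lower, with a median of 0.14. MXD1, an antagonist of MYC, went from 13.5 to 46.0 CPM (ratio 1.77), GADD45A from 159 to 332 CPM (ratio 1.06) and GADD45B from 35.8 to 71.5 CPM (ratio 1.00), while CDKN2C was at -0.91. Of 57 genes of mitosis and G2, 0 were past 1.5-fold, with a range from -0.58 (PSRC1) to 0.27 (UBE2C) and a median of -0.12. Of 44 replication genes, 1 was lower, PRIM1, a subunit of DNA primase, from 18.3 to 9.52 CPM (ratio -0.94), and 0 were higher.

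Genes of the ribosome were slightly above the centre. Of 31 ribosome biogenesis genes, 2 were higher, POLR1C and PPAN, each at 0.71, and 0 lower, with a median of 0.10. Of 80 ribosomal protein genes, 0 were past 1.5-fold, with a range from -0.22 to 0.28 and a median of 0.13, and their share of all counts was 4.50% in the control and 4.91% with Acetalax.

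Of 71 chromatin regulators, 6 were higher and 7 lower, and the median of -0.06 changed sign with the scaling. The lowest were CSRP2BP (KAT14, an acetyltransferase subunit), ZMYM3 and ZMYND8, with ratios of -1.54, -1.06 and -1.0, and the highest were the demethylase KDM6B (1.06), HDAC9 (1.04) and CHD2 (0.96). Zinc finger (ZNF) genes, most of them repressors of other genes, are given by location, and the difference between the groups was not tested. Of 165 on chromosome 19, 12 were higher and 16 lower, with a median of -0.12. Of 172 elsewhere, 3 were higher and 36 lower, with a median of -0.28, including ZNF74 from 19.9 to 8.78 CPM (ratio -1.18). Only 8 of 37 histone genes of the replication type were measured in this polyadenylated RNA. Of these 8, 1 was higher, HIST2H2BE (0.64), and 0 lower.

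Interferon-stimulated genes were the lowest of the lists chosen with the design. Of 19 measured, 18 were below 0, 6 were past 1.5-fold lower and 0 higher, with a median of -0.46. PARP9 and DTX3L, partners in antiviral defense that overlap on opposite strands, went from 15.9 to 6.09 CPM (ratio -1.38) and from 48.9 to 24.7 CPM (ratio -0.99). IFIT3 went from 10.4 to 5.24 CPM (ratio -0.99) and SAMD9 from 20.3 to 11 CPM (ratio -0.89). ISG15 was at -0.08 and IFITM3 at -0.07, so the low values were not shared by all. Of 21 immune surface genes, 2 were higher, CD55, which blocks complement, from 112 to 257 CPM (ratio 1.2) and CD274 (PD-L1) from 32.9 to 53.3 CPM (ratio 0.70), and 1 lower, NLRC5 (-0.74).

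Of 28 genes of WNT and Notch signaling, 5 were higher and 3 lower, and the median of -0.03 changed sign with the scaling. High were the receptors FZD8 (1.86) and FZD7 (1.03), the WNT inhibitor DKK1 from 102 to 229.6 CPM (ratio 1.16), and the Notch targets NRARP (1.12) and HEY1 (1.03). The 3 low genes encode ligands, WNT5A from 20.4 to 8.07 CPM (ratio -1.33), JAG1 from 13.3 to 5.75 CPM (ratio -1.20) and WNT7B (-0.95). Of 10 genes of retinoid metabolism and response, 3 were lower and 0 higher, with a median of -0.29, namely DHRS3 from 85.4 to 36.7 CPM (ratio -1.22), RDH10 (-0.92) and NRIP1 (-0.76).

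Metabolic and matrix lists were mostly near the centre. Of 29 genes of sterol synthesis, 4 were higher and 0 lower, led by INSIG1, which holds the sterol sensor in the endoplasmic reticulum, from 65.6 to 161 CPM (ratio 1.29), with HMGCS1, IDI1 and MSMO1 at 0.75, 0.69 and 0.59. The list median of -0.03 changed sign with the scaling, as did that of 29 genes of glycolysis and hypoxia (-0.03), where only KDM3A was past 1.5-fold (0.72). Of 13 protein genes of the mitochondrial genome, 0 were past 1.5-fold, with MT-ND2 at 0.48 and MT-CO1 at -0.13. Of 14 proteases and plasminogen genes, ADAMTS1 (1.61, from 69.4 to 211 CPM) and THBS1 (0.70) were higher and 0 lower, and of 24 collagen and matrix genes COL7A1 (0.86) was higher and FBN2 (-0.96) lower.

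The same genes were then set beside the other 3 Acetalax pairs, which share no library with the parental BT549 pair. The differences between pairs have no replicate error and were not tested. Of the 121 genes at least 2-fold higher in parental BT549 cells, 102 (84.3%) were so in BT549 CE cells, 46 (38%) in parental MDA-MB468 cells and 21 (17.4%) in MDA-MB468 CE cells. Over all 10142 genes the shares at least 2-fold higher were 4.06%, 4.39% and 2.49%. In turn, the shared genes were 24.8%, 10.3% and 8.30% of the genes at least 2-fold higher in each pair.

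Of the 126 genes at least 2-fold lower, 113 (89.7%) were so in BT549 CE cells, 20 (15.9%) in parental MDA-MB468 cells and 7 (5.56%) in MDA-MB468 CE cells, where the shares over all genes were 9.52%, 2.59% and 1.31%. The shared genes were 11.7%, 7.60% and 5.26% of the genes at least 2-fold lower in each pair. The same sign as in parental BT549 cells was seen for 119 of the 121 higher and 125 of the 126 lower genes in BT549 CE cells, 96 and 89 in parental MDA-MB468 cells, and 70 and 78 in MDA-MB468 CE cells. The BT549 CE ratios were also the larger ones: the median over the 121 genes was 1.78, against 1.24 in parental cells, and over the 126 genes -1.82, against -1.16. In 92 of the 121 and 107 of the 126 genes the ratio was larger in size in the CE pair. Other scalings were not applied to the comparison between pairs. The TMM factors (control and Acetalax) were 1.08 and 0.93 in BT549 CE, against 1.02 and 0.98 in parental BT549 cells.

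The limit of 5 CPM was set in parental BT549 cells, so some of these genes rested on few counts in the other pairs. Of the 121 higher genes, 14 had a mean under 5 CPM in BT549 CE, 26 in parental MDA-MB468 and 27 in MDA-MB468 CE cells, and of the 126 lower genes, 22, 29 and 31. Among the 107, 95 and 94 higher genes that reached 5 CPM in the other pair too, 91 (85.0%), 39 (41.1%) and 13 (13.8%) were at least 2-fold higher there, and 106, 78 and 55 had the same sign. Over all genes at 5 CPM or more in both pairs the shares were 3.91%, 3.4% and 1.19%. Among the 104, 97 and 95 lower genes, 95 (91.3%), 14 (14.4%) and 3 (3.16%) were at least 2-fold lower there, and 104, 77 and 57 had the same sign. Over all such genes the shares were 8.89%, 1.52% and 0.721%.

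Among single genes, HIF1A-AS2 had a ratio of 3.30 in parental BT549 cells and 0.38 in BT549 CE cells, where it had 23 and 28 counts and the interval held 0, and of 2.40 and 1.84 in parental and CE MDA-MB468 cells. FAM46C was high in parental BT549 cells only among the 4 pairs, with 1.86 against -0.87 in BT549 CE, -1.33 in parental MDA-MB468 and -1.52 in MDA-MB468 CE cells. HMOX1 was high in both BT549 pairs (1.84 and 1.96) and low in both MDA-MB468 pairs (-0.83 and -0.63). IL8 had its smallest ratio in parental BT549 cells, 2.10, against 6.13 in BT549 CE, 5.12 in parental MDA-MB468 and 3.31 in MDA-MB468 CE cells, and its parental BT549 control level was 85.4 CPM. TXNIP was also low in BT549 CE cells, with 5845 counts in the control and 2126 with Acetalax (ratio -1.36). In MDA-MB468 cells it had 3 and 0 counts in the parental pair and 4 and 0 in the CE pair, too few to give a direction.

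**Figure D4:**
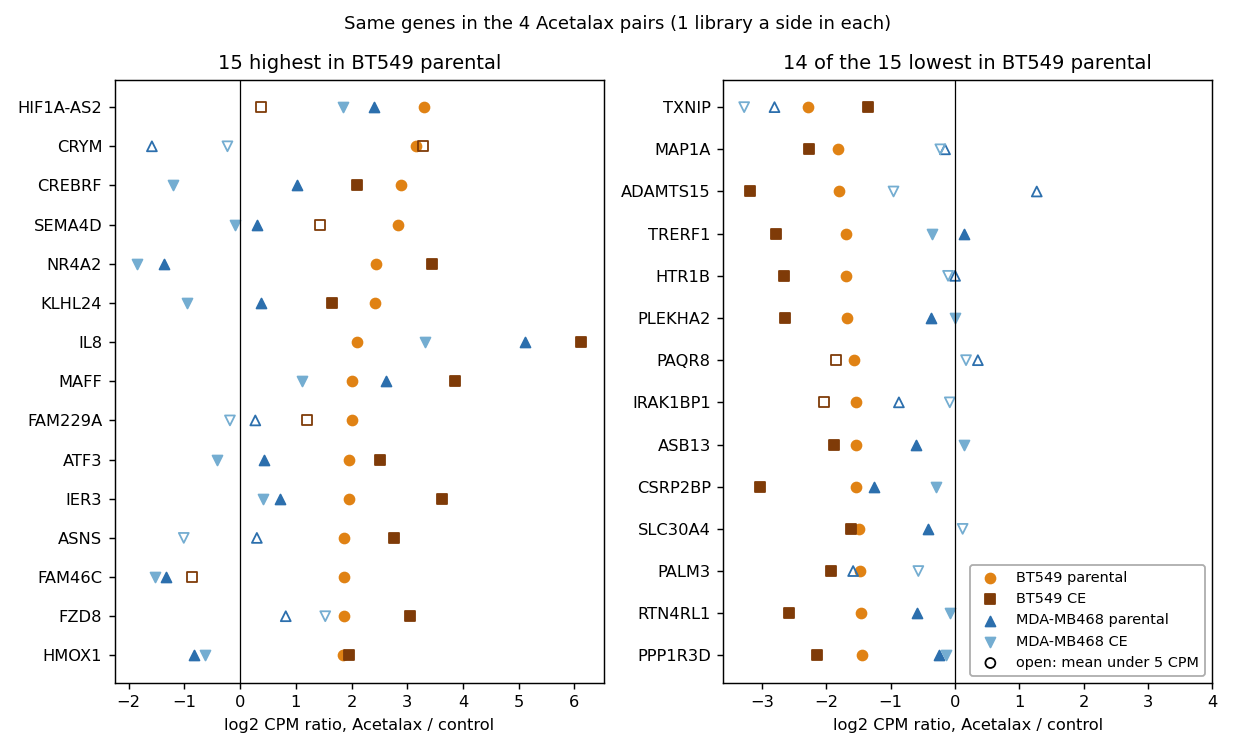
Log2 CPM ratio (Acetalax over control) of the 15 highest and 14 of the 15 lowest genes of the parental BT549 pair (orange circles) in the BT549 CE (brown squares), parental MDA-MB468 (dark triangles) and MDA-MB468 CE (light triangles) pairs, 1 library a side in each. Open symbols are genes with a mean under 5 CPM in that pair, whose ratios rest on few counts, among them TXNIP, CRYM and ADAMTS15 in MDA-MB468 cells. For most genes the BT549 CE point lies on the same side and farther out, and the MDA-MB468 points scatter around 0, with IL8 and MAFF past 2-fold higher in each of the 4 pairs.

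Level and gene size moved with the ratio, and their part in the results was not tested. In 5 equal bins of genes from low to high mean CPM, the median ratio was -0.26, -0.19, -0.12, -0.06 and 0.02. Genes at least 2-fold lower numbered 80, 24, 14, 8 and 0 over these bins, while those at least 2-fold higher numbered 30, 24, 15, 27 and 25. The lower genes thus lay mostly at low levels, where the median width of the counting interval was 0.54 (genes at 5 to 6 CPM), against 0.09 at 100 CPM or more.

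By gene span, in 5 equal bins from short to long, the median ratio was -0.01, -0.09, -0.10, -0.14 and -0.15. Genes at least 2-fold higher numbered 44, 27, 22, 13 and 15, and those at least 2-fold lower 24, 20, 23, 27 and 32. The median span was 14892 bases for the higher genes, 43685 for the lower genes and 33682 for all genes tested. Among kinds of gene, 89 long intergenic noncoding RNAs had a median of 0.11 with 11 past 1.5-fold higher and 4 lower, against a median of -0.11 over 9770 protein-coding genes with 347 higher and 920 lower.

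**Figure D5:**
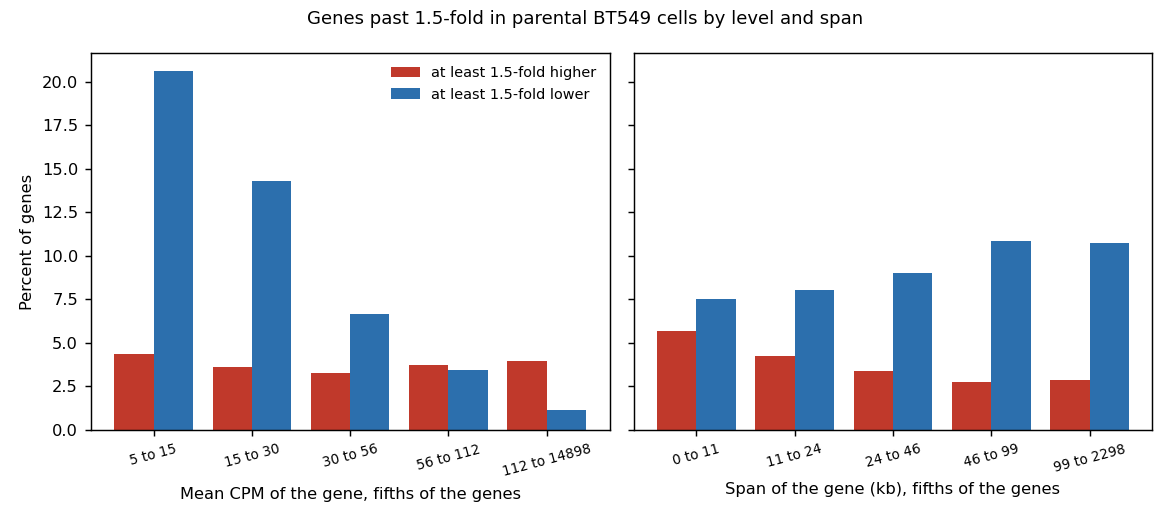
Percent of genes at least 1.5-fold higher (red) and lower (blue) with Acetalax in parental BT549 cells, in 5 equal bins of the 10142 genes by mean CPM (left) and by gene span in kilobases (right). The share of lower genes goes from 20.6% in the lowest to 1.13% in the highest CPM bin, and the share of higher genes from 5.67% in the shortest to 2.86% in the longest span bin.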

How the data were processed

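RNA-seq of 8 libraries, 1 per condition, was deposited as 1 table of raw counts per gene. Alignment by the authors used STAR (the sources used here name different versions) on hg19, its GeneCounts mode gave the reads per gene, and the deposited values are these whole-number counts, not normalized. The library kit keeps strand, but the strand column used and the annotation are not given in the sources used here. Genes that overlap on opposite strands, or have near-identical copies, are therefore uncertain.

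The table had 58154 rows for 55679 identifiers. Of these, 1392 appeared more than 1 time and were used 1 time (3 had differing counts), and 28 symbols turned into dates were restored. Columns that belong to no sample of the series numbered 0. Positions are those of the table.

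Over genes whose mean in the parental BT549 pair reached 5 CPM, log2 CPM ratios were computed with 0.5 counts added and total-count scaling, with 95% Clopper-Pearson intervals (scipy 1.17.1). Such intervals hold counting error alone and treat reads as independent. PCR copies of a molecule are counted as separate reads, so the intervals can be too narrow even for that error. The script was tested on simulated data. With 1 library a side no test was possible, and 2-fold and 1.5-fold served as thresholds. The members and lists were chosen with earlier results of these data known. Of 1009 symbols in 36 lists, 1003 matched; another 6 groups were added (ribosomal proteins, both ZNF groups, histones, and those marked in the text). Named genes are the 15 highest and 15 lowest ratios, the 10 largest gains and losses in CPM, up to 4 members at the leading end of each list (both ends where equal), TRPM4 and the markers. Other members named were chosen after their values were seen. Some genes that this rule covers are not reported here.

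Alternatives were TMM scaling (edgeR 4.0.16), DESeq2 size factors (1.42.0), protein-coding counts, log2(FPKM+1) differences, other pseudocounts and CPM minimums, thresholds on the interval, and, added after seeing the data, the median set to 0 and a 5 CPM minimum in the other pairs.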

Additional observations from a re-analysis of the deposited data

Results flagged for a closer look

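Among the 15 highest and 15 lowest genes of parental BT549 cells, 4 had log2 CPM ratios past 2-fold with the opposite sign in parental MDA-MB468 cells, and no test of that contrast was made, so the difference was not tested. Of these, 2 reached a mean of 5 CPM in both pairs. NR4A2 had a ratio of 2.43 in parental BT549 cells and -1.36 (interval -1.55 to -1.19) in parental MDA-MB468 cells, where it had 893 counts in the control and 346 with Acetalax. FAM46C had 1.86 and -1.33 (-1.52 to -1.15), with 855 and 339 counts in MDA-MB468. The other 2 rested on few counts there. ADAMTS15 had -1.80 and 1.27 (0.08 to 2.72), with 8 and 20 counts. CRYM had 3.15 and -1.58, but with 1 and 0 counts in MDA-MB468 it has no direction there.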

How the results depend on the processing

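With 1 library a side, the values carry no error across cultures. Under the alternatives, no named gene past 1.5-fold changed sign. Neither did a list median well away from both 0 and the median of all genes. Both outcomes were fixed in advance and do not measure robustness. Each scaling moves every gene by the same amount, at most 0.1016. The larger pseudocount and the FPKM scale shrink ratios of that size without turning their sign. Counts of genes have no sign that could reverse. The direction with more genes past 2-fold did change, from 121 higher and 126 lower under total-count scaling to 141 and 95 under TMM. The list medians near 0 that changed sign with the scaling are named above. The counts of 121 and 126 genes at least 2-fold higher and lower, and of 382 and 936 at least 1.5-fold higher and lower, moved by over 1.5 times in 17 of 48 alternative values. At a mean of 1 CPM or more (12833 genes) the counts were 237, 303, 715 and 1484, and over genes with at least 1 count (29625 genes), 5275, 4393, 7132 and 6915. At 20 CPM or more (7287 genes), 38 genes were at least 2-fold lower and 375 at least 1.5-fold lower. On the log2(FPKM+1) scale, 73 and 22 genes were at least 2-fold higher and lower and 368 at least 1.5-fold lower. With the whole interval past the fold, 59 and 487 were lower. With the median set to 0, 79 and 616 were lower. The median of all genes was -0.0358 under TMM, -0.0600 with DESeq2's size factors, -0.0845 on the FPKM scale, -0.0610 at 20 CPM or more, -0.0415 over genes with at least 1 count and 0.0000 by construction when centred. DESeq2's size factors were 1 for both parental BT549 libraries, so that setting compared counts without any scaling. Counted only where the mean also reached 5 CPM in MDA-MB468 CE cells, a choice made after seeing the data, the genes shared with that pair numbered 13 higher (21 without that limit) and 3 lower (7), over fewer genes. The cause of the other changes was not tested. Of 252 list medians, 92 moved, and of 504 list counts, 41. No paired analysis was possible because each group holds 1 library, and for the same reason no replicate could be left out.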
